A study of Mus musculus with 24 samples.

Results

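De novo fatty acid synthesis turns carbon from sugar into palmitate and longer fatty acids. The 10 genes described here are 7 enzymes of that route (Acly, Acss2, Acaca, Fasn, Me1, Elovl5 and Elovl6) and 3 genes that regulate it (Thrsp, Srebf1 and Mlxipl). They were chosen by name, with earlier results of these data known, from the table of read counts. Where several gene models shared a symbol the model with the highest total count was kept. That gave 10 genes of the 29758 symbols in the table. All 10 passed the filter on low counts both in exons, where 15719 genes were tested, and in introns, where 14611 were tested.

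The samples were whole back skin of male wild type C57BL/6NCrl mice aged about 8 weeks, with hair follicles in telogen, the resting phase of the hair cycle. Chow was offered for 4 h a day over 18 to 21 days in 1 of 3 windows. Lights were on for 12 h from zeitgeber time 0 (ZT0) and off for the next 12 h. The group labelled EN was fed from ZT12 to ZT16, in the first hours of darkness, the group labelled MD from ZT5 to ZT9, around midday, and the group labelled ED from ZT0 to ZT4, in the first hours of light. Each group had 8 libraries, 1 every 4 h from ZT0 to ZT28, and each library was made from the pooled RNA of 2 to 4 mice. No group had food at all times, so every comparison is between hours or between windows of restricted feeding. Pools are the units of each fit. With 1 pool per group and sampling time, p-values rest on departures of pools from the fitted terms. Those departures hold both the spread between pools and any lack of fit. Because the windows differ, the same hour of the day fell at different hours since food was offered, and each library was placed by the hours since its own window had opened. By that measure 7 libraries lay 3 to 8 h after opening (after food), 8 lay at 11 to 16 h and 9 lay at 19 to 24 h, just before the next meal (before food).

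Exon reads came to between 13222667 and 26316851 per library, with a median of 17650140, and intron reads to between 7768854 and 17796013. The labelled tissue was checked with marker genes: none of the 6 keratinocyte, 9 sebaceous gland, 9 adipocyte, 5 fibroblast or 6 skeletal muscle markers was at 0. Their summed levels differed between feeding groups. The adipocyte sum averaged 2760 ± 595 CPM (counts scaled to library size) in EN, 1716 ± 279 in MD and 2627 ± 326 in ED skin (SD, n = 8 each), and the muscle sum averaged 39981 ± 11147, 62642 ± 7992 and 34859 ± 11388 in the same order. Pools ED ZT24 and EN ZT0 stood apart, with hair shaft keratins and associated genes at a mean summed level of 1869 CPM against 29.2 CPM in the other 22 libraries. Where a fit was repeated without these 2 pools, calls that were lost are named beside the result. Intron fits by feeding group, of rhythms, rhythm differences and mean levels, were not repeated without them.

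Acetyl-CoA for the route is made in the cytosol from citrate or acetate, is carboxylated to malonyl-CoA and is then built into palmitate with NADPH as the reductant. In liver and adipose tissue the genes are switched on by feeding through the insulin-responsive factor SREBP1 (encoded by Srebf1) and the glucose-responsive factor ChREBP (encoded by Mlxipl). In skin the route supplies the sebaceous glands, the dermal adipocytes and the lipid barrier of the epidermis.

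Promoter windows show which known sequence elements the genes carry. RefSeq (GRCm38.p6) gave 14 windows for the 10 genes, each of 300 bases from 250 before the first transcribed base to 50 from it on. Both strands were searched for 4 motifs, of which TCACNCCAC is a sterol regulatory element form bound by SREBP factors, CACGTG is the E box core, CCAAT is the site of the factor NF-Y and GGGCGG is the GC box of the factor Sp1. TCACNCCAC occurred in 1 of the 10 genes, against 1.24% of 32851 promoter windows of the same length. CACGTG occurred in 2 genes (Elovl5 and Mlxipl), against 7.15% of windows. CCAAT occurred in 8 genes, against 37.4% of windows, and GGGCGG in 5 genes, against 35.7%. A gene with several windows was counted once, so these gene counts are not on the footing of the window shares. The motifs could overlap each other, and a match is a description of the letters only.

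These 5 windows are printed 5′ to 3′ on the gene's strand, with matches to any of the 4 motifs, on either strand, in capitals. The windows of Acss2 (chr2:155517793-155518092, plus strand), Fasn (chr11:120824498-120824797, minus strand) and Thrsp (chr7:97417501-97417800, minus strand) are shown because the 3 genes differ in the measurements below, and the pair of Mlxipl start sites (chr5:135089640-135089939 and chr5:135106641-135106940, plus strand) because they hold different elements.
Acss2: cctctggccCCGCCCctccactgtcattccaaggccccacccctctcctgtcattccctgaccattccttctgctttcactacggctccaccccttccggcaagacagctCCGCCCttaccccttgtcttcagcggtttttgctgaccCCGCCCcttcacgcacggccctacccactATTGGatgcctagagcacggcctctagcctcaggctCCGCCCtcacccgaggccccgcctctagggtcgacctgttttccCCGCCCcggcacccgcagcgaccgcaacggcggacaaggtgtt
Fasn: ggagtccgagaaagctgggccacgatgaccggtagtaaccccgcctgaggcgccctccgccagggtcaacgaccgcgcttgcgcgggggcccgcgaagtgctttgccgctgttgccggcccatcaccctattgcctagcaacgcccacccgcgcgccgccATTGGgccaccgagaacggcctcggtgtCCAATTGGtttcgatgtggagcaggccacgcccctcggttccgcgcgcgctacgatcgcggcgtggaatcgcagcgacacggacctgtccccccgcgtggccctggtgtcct
Thrsp: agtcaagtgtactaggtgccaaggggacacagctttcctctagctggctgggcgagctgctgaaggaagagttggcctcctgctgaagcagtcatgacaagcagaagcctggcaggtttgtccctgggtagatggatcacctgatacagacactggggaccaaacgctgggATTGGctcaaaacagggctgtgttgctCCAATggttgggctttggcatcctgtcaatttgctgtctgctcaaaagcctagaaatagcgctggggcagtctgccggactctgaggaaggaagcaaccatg
Mlxipl, first start site: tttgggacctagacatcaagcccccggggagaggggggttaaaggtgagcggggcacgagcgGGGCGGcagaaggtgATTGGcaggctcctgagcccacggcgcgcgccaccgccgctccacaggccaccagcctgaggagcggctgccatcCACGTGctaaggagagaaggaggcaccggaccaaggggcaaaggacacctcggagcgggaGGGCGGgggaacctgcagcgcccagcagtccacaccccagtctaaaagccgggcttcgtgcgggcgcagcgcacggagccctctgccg
Mlxipl, second start site: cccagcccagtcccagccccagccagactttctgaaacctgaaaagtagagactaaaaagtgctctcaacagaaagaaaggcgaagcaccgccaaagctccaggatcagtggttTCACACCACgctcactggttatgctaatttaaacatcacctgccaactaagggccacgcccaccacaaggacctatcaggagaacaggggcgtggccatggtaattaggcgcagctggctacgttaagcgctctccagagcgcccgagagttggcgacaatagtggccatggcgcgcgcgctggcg

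Each of the 3 enzyme and cofactor windows held CCAAT within 100 bases before the start: Fasn at positions -90 to -86, -62 to -58 and -59 to -55, Thrsp at -79 to -75 and -52 to -48, and Acss2 at -73 to -69, with the first transcribed base as position 0. The matches of Fasn at -62 and -59 overlap, since the letters CCAATTGG hold the motif on both strands. Acss2 held 5 GC boxes and Fasn and Thrsp none. The first start site of Mlxipl held CACGTG at -98 to -93, and the second held TCACACCAC at -136 to -128, the 1 match to the sterol element among the 14 windows. The windows of Acaca, Fasn and Srebf1 and the second windows of Me1 and Mlxipl lie inside the spans of their genes, at start sites downstream of the outermost end.

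On GRCm38.p6, which has the sequence of the authors' build mm10, the genes lie at chr11:100476352-100528000 (Acly), chr2:155518043-155562743 (Acss2), chr11:84129635-84401651 (Acaca), chr11:120805958-120825166 (Fasn) and chr9:86581363-86695914 (Me1). The others lie at chr9:77917365-77984519 (Elovl5), chr3:129532386-129638495 (Elovl6), chr7:97412933-97417550 (Thrsp), chr11:60199084-60224186 (Srebf1) and chr5:135089890-135139768 (Mlxipl).

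Levels can be set side by side between genes only per kilobase of transcript, which the authors' deposited RPKM values (reads scaled to transcript length and library size) give. Fasn, which builds palmitate, had the highest exon level at 380 ± 103 RPKM (SD over all 24 libraries, so the time course is part of it). Acly, which splits citrate into acetyl-CoA, followed at 191 ± 57.2 RPKM and Elovl5, which lengthens polyunsaturated fatty acids, at 177 ± 16.9 RPKM. Me1, the malic enzyme that makes NADPH, lay at 122 ± 30.0 RPKM. Elovl6, which lengthens palmitate to stearate, lay at 90.7 ± 12.4, Thrsp, a small protein that promotes lipogenesis, at 78.1 ± 40.0, and Acaca, the acetyl-CoA carboxylase, at 69.2 ± 19.3 RPKM. Acss2, which makes acetyl-CoA from acetate, lay at 46.1 ± 15.7 and Srebf1 at 44.4 ± 7.19 RPKM. Mlxipl was lowest at 8.16 ± 1.81 RPKM. The ranges of mean ± SD overlapped for most neighbours in this order, Fasn lay above and Mlxipl below those of all others, and no difference was tested. Relative to its mean, Thrsp varied most over the 24 libraries and Elovl5 least.

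The change with food was asked of mature transcripts first. After food, 6 of the 10 genes were higher in exons than before food: Acly, Acss2, Me1, Thrsp, Srebf1 and Mlxipl. None was lower, at adjusted or at unadjusted p, under edgeR or DESeq2. Of all 15719 genes 2.39% were called higher and 2.46% lower, so the share of these genes called higher stood above that of all genes. As the genes were chosen with earlier results of these data known, that gap is a description and not a test. Their median log2 change was 0.38, against 0.0022 for all genes tested. Changes are log2 differences of after minus before food ± SE from a fit with feeding group and hour of the day as terms, and adjusted p-values are from edgeR's quasi-likelihood F test with Benjamini-Hochberg adjustment over all genes. Single pools weighed on the count, which was 3 without any 1 of MD ZT12, ED ZT20, EN ZT8, EN ZT12 or EN ZT20, when Acss2, Me1 and Srebf1 were not called. In pooled whole skin, fewer cells of a type and less RNA per cell cannot be told apart.

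**Figure D1:**
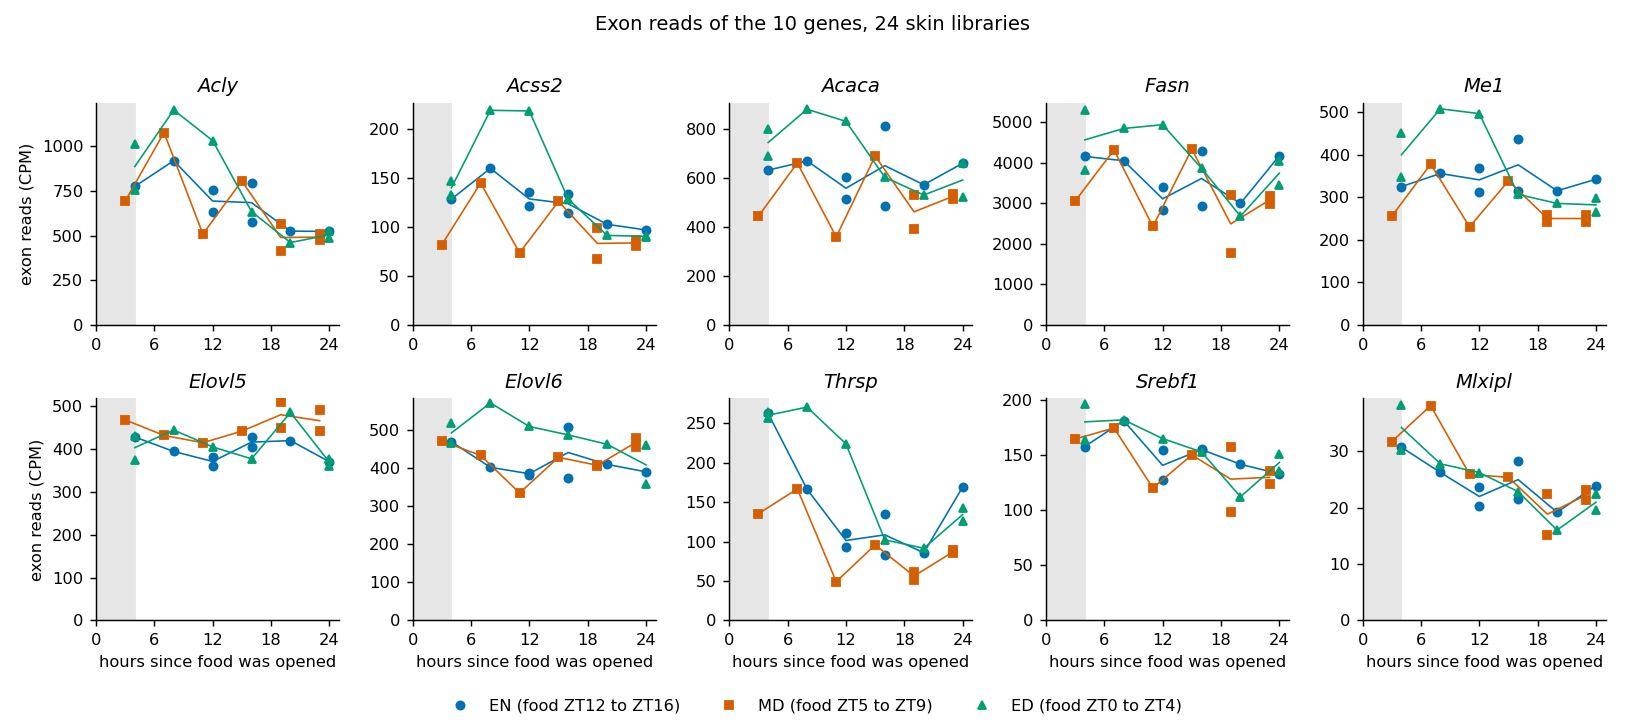
Exon level in CPM (y axes) against hours since the feeding window opened (x axes) for the 10 genes. Points are single pools, coloured by feeding group, lines join the mean at each hour within a group, and the grey band marks the 4 h with food. Acly peaks at 7 to 8 h in all 3 groups, while Elovl5 stays between 361 and 510 CPM throughout.

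Both transcription factor genes were among those that rose. Mlxipl had between 26.2 and 38.2 CPM (median 30.7) after food, against between 15.2 and 23.9 CPM (median 21.4) before food. The ranges did not overlap, and the highest pools were ED ZT28 and MD ZT12. The change was 0.64 ± 0.107 on the log2 scale (adjusted p = 0.00101). Srebf1 had between 157.7 and 196 CPM (median 174) after food, against between 98.7 and 157.6 CPM (median 135) before food. These ranges met at their ends without overlapping, and the change was smaller, 0.40 ± 0.105 (adjusted p = 0.0209). Without 1 pool at a time the Srebf1 call was lost in 7 of 24 fits. Mlxipl rests on the fewest reads of the 10 genes, between 288 and 683 exon reads per library.

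Thrsp had the largest exon change of the 10 genes. It had between 135 and 271 CPM (median 256) after food, against between 51.1 and 169 CPM (median 88.8) before food, a change of 1.01 ± 0.200 (adjusted p = 0.00218). 4 of the 7 pools after food lay above all 9 pools before food, and the pools that overlapped were MD ZT8, MD ZT12 and EN ZT20. Pools sampled 23 to 24 h after opening, at 85.0 to 169 CPM, lay mostly above those at 19 to 20 h, at 51.1 to 91.6 CPM, a difference that was not tested.

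Of the enzymes that make acetyl-CoA, Acly had between 692 and 1203 CPM (median 919) after food, against between 411 and 566 CPM (median 510) before food. The ranges did not overlap. The change was 0.87 ± 0.134 (adjusted p = 0.000377), and within groups the class means differed by 0.69 in EN, 0.85 in MD and 1.02 in ED on the log2 scale. Acss2 had between 81.9 and 219 CPM (median 145) after food, against between 67.4 and 103 CPM (median 90.9) before food. 6 of 7 pools after food lay above all pools before food, the exception being MD ZT8 at 3 h. Its change was 0.60 ± 0.168 (adjusted p = 0.0201).

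Me1 had between 255 and 508 CPM (median 356) after food, against between 241 and 342 CPM (median 266) before food, with 5 of 7 pools above all pools before food. The change of 0.35 ± 0.113 lay close to the threshold of 0.05 (adjusted p = 0.048). It was not called without the second day (0.31, adjusted p = 0.155) or without the term for hour of the day (0.35, adjusted p = 0.0755). In EN skin its class means differed by 0.051 on the log2 scale, against 0.34 in MD and 0.62 in ED skin, and these 3 values were not tested against each other.

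The carboxylase and the synthase were not called in exons. Fasn had between 3053 and 5299 CPM (median 4154) after food, against between 1770 and 4172 CPM (median 3180) before food, and the log2 difference was 0.35 ± 0.179 (95% interval -0.031 to 0.74, adjusted p = 0.206). Acaca had between 445 and 882 CPM (median 671) after food, against between 394 and 663 CPM (median 531) before food, with a difference of 0.24 ± 0.153 (95% interval -0.092 to 0.57, adjusted p = 0.315). Both ranges overlapped widely, and both differences were positive in each feeding group. With the adipocyte and sebaceous gland marker sums as covariates the values were 0.66 ± 0.156 for Fasn (adjusted p = 0.0143) and 0.50 ± 0.137 for Acaca (adjusted p = 0.0245), both past the threshold. The adipocyte sum includes Plin4 and Lipe, which were themselves called lower after food. Their part in these values was not tested.

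Neither elongase was called in exons. Elovl6 had between 402 and 571 CPM (median 469) after food, against between 357 and 480 CPM (median 410) before food, and differed by 0.084 ± 0.0967 (95% interval -0.12 to 0.29, adjusted p = 0.646). Elovl5 had between 375 and 468 CPM (median 431) after food, against between 361 and 510 CPM (median 441) before food, a difference of -0.039 ± 0.0677 (95% interval -0.18 to 0.11, adjusted p = 0.792), the 1 exon value below 0. Elovl5 varied least between pools, and its difference lay within 1 SE of 0.

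**Figure D2:**
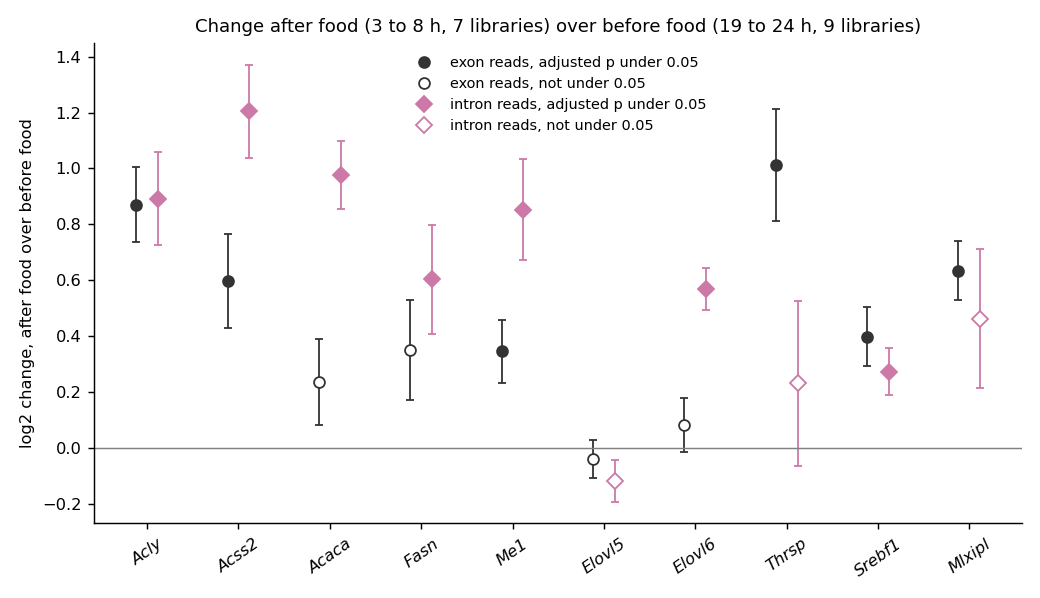
Log2 change after food minus before food (y axis) for each of the 10 genes (x axis), in exons and in introns, with bars of 1 SE. Acaca, Elovl6, Fasn, Me1 and Acss2 have larger values in introns, up to 1.20 for Acss2, while Thrsp has 1.01 in exons and 0.23 in introns.

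Markers moved with feeding time in part. The keratinocyte sum was 8863 ± 365 CPM after food (n = 7) and 7699 ± 678 CPM before food (n = 9), and 1 of its 6 genes, Krt1, was called higher (0.45 ± 0.119, adjusted p = 0.0233). The adipocyte sum was 2305 ± 517 CPM after food and 2486 ± 846 CPM before food, and 2 of 9 adipocyte genes, Plin4 (-0.59 ± 0.12) and Lipe (-0.76 ± 0.137), were called lower and none higher. The sebaceous gland sum was 1451 ± 154 CPM after food and 1483 ± 165 CPM before food. With the adipocyte and sebaceous sums as covariates 8 of the 10 genes were called higher, the 6 above with Acaca and Fasn. Wherever it was a covariate, the sebaceous sum left out Elovl3 and Scd3. The part of the keratinocyte sum was not tested.

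Other genes of lipid synthesis were read from 4 lists. Of 14 tested genes for carbon supply and NADPH 2 were called higher and none lower: Pgd, an enzyme of the pentose phosphate route (0.61 ± 0.107, adjusted p = 0.00105), and Slc2a4, the insulin-responsive glucose transporter (0.45 ± 0.132, adjusted p = 0.0281). Hk2, a hexokinase, had the next smallest value (0.41, adjusted p = 0.0546). Of 13 elongases and desaturases 1 was called, Scd2, a stearoyl-CoA desaturase with close paralogs whose reads the counting could share. Scd2 had 273 ± 87.6 CPM after food and 92.3 ± 16.1 CPM before food, a change of 1.62 ± 0.178 (adjusted p = 6.51e-06) that was larger than that of any of the 10 genes. The desaturases Fads2 (0.43 ± 0.205, adjusted p = 0.156) and Fads3 (-0.34 ± 0.191, adjusted p = 0.18) had the next smallest values.

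Of 10 genes for fatty acid activation and triglyceride synthesis 2 were called higher and none lower, Pnpla3 (0.76 ± 0.125, adjusted p = 0.000564) and Agpat2 (0.92 ± 0.232, adjusted p = 0.00945), an acyltransferase of the glycerolipid route, and Acsl1, an acyl-CoA synthetase, came next (-0.27 ± 0.112, adjusted p = 0.129). Of 19 other regulators 2 were called higher and none lower. Mlx, the binding partner of ChREBP, changed by 0.52 ± 0.0842 (adjusted p = 0.00105), with 31.1 ± 3.36 CPM after food and 22.1 ± 2.25 CPM before food, and Insig1, which holds SREBP proteins in the endoplasmic reticulum, by 0.52 ± 0.145 (adjusted p = 0.0234). Mid1ip1, a partner of Thrsp, came next at 0.25 ± 0.0846 (adjusted p = 0.0702). The list medians were 0.18 for carbon supply, 0.063 for elongases and desaturases, -0.022 for activation and triglycerides and 0.072 for other regulators, against 0.0022 for all genes. In introns 3 genes were higher and 1 lower of the 14 for carbon supply, 4 higher and 0 lower of the 13 elongases and desaturases, 2 higher and 1 lower of the 10 for activation and triglycerides, and 1 higher and 2 lower of the 19 other regulators, against 3.65% of all genes higher and 4.86% lower.

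Intron reads come mostly from unspliced transcripts and were used to follow newly made RNA. After food 7 of the 10 genes were higher in introns and none was lower: Acly, Acss2, Acaca, Fasn, Me1, Elovl6 and Srebf1. Of all 14611 genes 3.65% were called higher and 4.86% lower, so the members' share again stood above it, with the same limit from how the genes were chosen. With library sizes and factors taken from exon reads 6 genes were called and Srebf1 was not (0.23 ± 0.0784, adjusted p = 0.101). The median log2 change of the 10 genes was 0.59, against 0.010 for all genes.

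**Figure D3:**
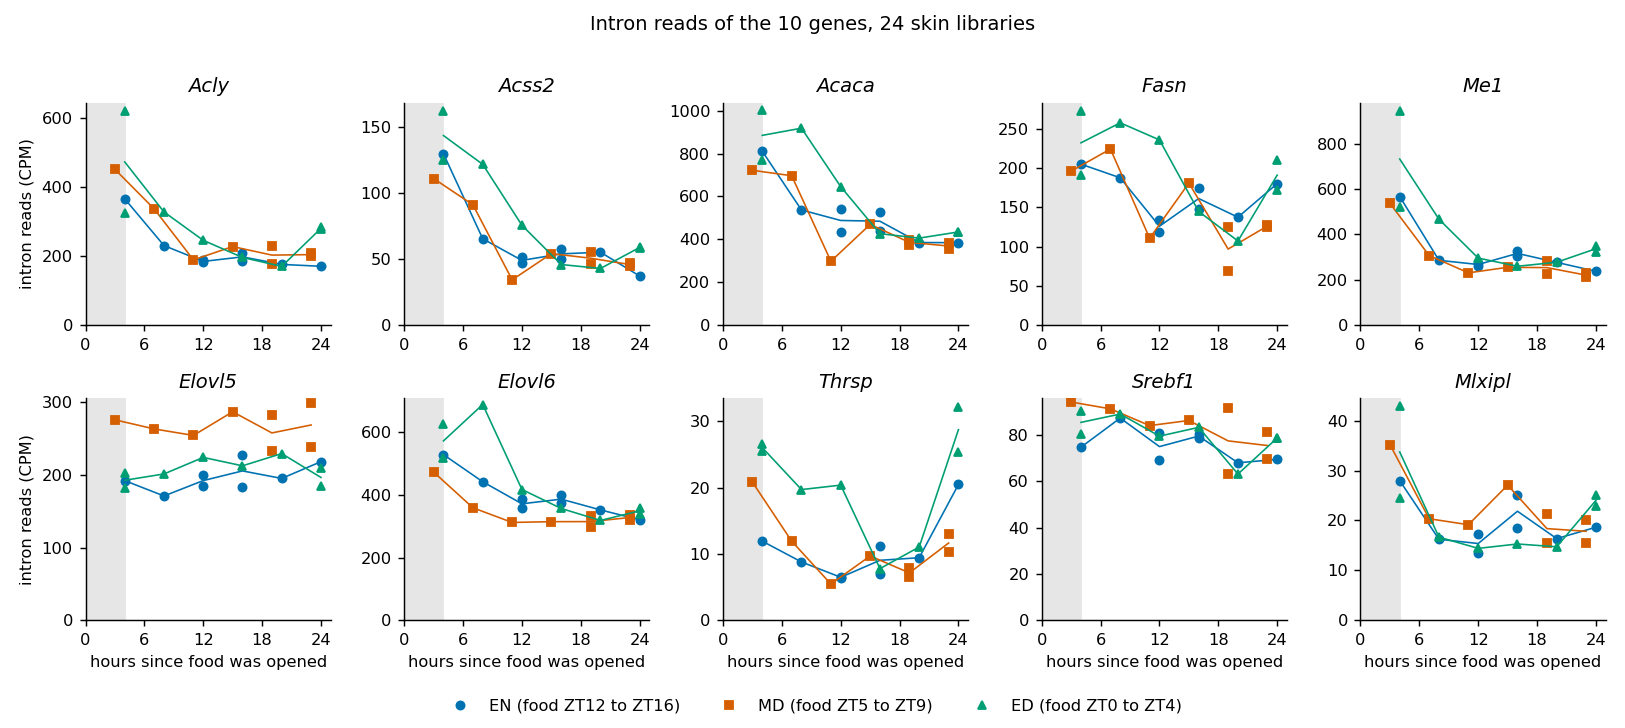
Intron level in CPM (y axes) against hours since the feeding window opened (x axes) for the 10 genes, with points, lines and grey band as for the exon levels. In 7 of the 10 genes the class at 3 to 4 h is the highest, and Thrsp is high both there and at 23 to 24 h.

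Acss2 introns had between 65.3 and 162 CPM (median 122) after food, against between 37.1 and 59.4 CPM (median 46.7) before food. Acaca introns had between 537 and 1001 CPM (median 768) after food, against between 353 and 435 CPM (median 384) before food. Elovl6 introns had between 359 and 688 CPM (median 518) after food, against between 298 and 358 CPM (median 332) before food. In all 3 genes the ranges did not overlap, and ED ZT28 or ED ZT8 was the highest pool. The changes were 1.20 ± 0.167 for Acss2 (adjusted p = 6.88e-05), 0.98 ± 0.122 for Acaca (adjusted p = 2.07e-05) and 0.57 ± 0.0758 for Elovl6 (adjusted p = 8.93e-05). Acaca and Elovl6 were not called in exons.

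Acly introns changed by 0.89 ± 0.167 (adjusted p = 0.000648), close to its exon value. Me1 introns changed by 0.85 ± 0.181 (adjusted p = 0.00148), Fasn introns by 0.60 ± 0.194 (adjusted p = 0.0319) and Srebf1 introns by 0.27 ± 0.0834 (adjusted p = 0.035). For these 4 genes the ranges after and before food overlapped. Without 1 pool at a time the intron calls of Fasn and of Srebf1 were each lost in 9 of 24 fits. Mlxipl introns differed by 0.46 ± 0.249 (adjusted p = 0.165), Thrsp introns by 0.23 ± 0.295 (adjusted p = 0.683) and Elovl5 introns by -0.12 ± 0.0743 (adjusted p = 0.319).

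Thrsp introns were few, between 60 and 371 reads per library, and their course was unlike that of its exons. At 3 to 4 h after opening the EN ZT16, MD ZT8, ED ZT4 and ED ZT28 pools had 11.9, 20.8, 25.5 and 26.6 CPM. At 23 to 24 h the EN ZT12, MD ZT4, MD ZT28, ED ZT0 and ED ZT24 pools had 20.5, 13.0, 10.3, 25.3 and 32.1 CPM. Both sets lay mostly above the 4 pools at 19 to 20 h, which had between 6.48 and 11.1 CPM. In EN skin the highest intron pool was thus the one at the opening of the window, at 24 h, and in ED skin it was the ED ZT24 pool, 1 of the 2 with hair shaft transcripts.

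The ratio of intron to exon reads was tested within libraries by limma over 13700 genes. After food the ratio was higher for 2 of the 10 genes, Acaca (log2 change 0.74 ± 0.131, adjusted p = 0.0202) and Elovl6 (0.49 ± 0.0877, adjusted p = 0.0271), and lower for none, against 0.285% of all genes higher and 0.307% lower. Only Acaca was called when the 2 pools with hair shaft transcripts were left out. The ratio of Acss2 differed by 0.61 (adjusted p = 0.171) and that of Acly by 0.022 (adjusted p = 0.984). Thrsp had the 1 negative value past unadjusted p = 0.05, at -0.78 ± 0.208 (adjusted p = 0.0952).

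Within the after-food pools, mean exon levels of Acly, Acss2, Acaca and Me1 were higher and mean intron levels lower at 7 to 8 h than at 3 to 4 h. In the other 6 genes exon and intron means had the same order, higher at 7 to 8 h for Fasn and Srebf1 and lower for Thrsp, Mlxipl, Elovl5 and Elovl6. Acly exons averaged 1066 ± 142 CPM at 7 to 8 h (n = 3) and 810 ± 141 CPM at 3 to 4 h (n = 4), while its introns averaged 298 ± 59.0 CPM at 7 to 8 h and 440 ± 132 CPM at 3 to 4 h. Me1 exons averaged 414 ± 82.1 CPM at 7 to 8 h and 345 ± 81.1 CPM at 3 to 4 h, and its introns 353 ± 99.1 CPM at 7 to 8 h and 642 ± 202 CPM at 3 to 4 h. Acss2 exons averaged 175 ± 39.3 CPM at 7 to 8 h and 123 ± 28.4 CPM at 3 to 4 h, and its introns 92.8 ± 28.3 CPM at 7 to 8 h and 132 ± 21.6 CPM at 3 to 4 h. The difference of 7 to 8 h minus 3 to 4 h was tested across all genes, and edgeR called 0 genes at adjusted p, in exons (0% of 15719) and in introns (0% of 14611). At unadjusted p under 0.05 it gave 1106 genes in exons, 635 of 15719 higher and 471 lower. In introns it gave 518 of 14611 higher and 376 lower. DESeq2 called 30 genes in exons, none of them among the 10. At that unadjusted level 3 of the 10 genes were higher in exons, Acly (0.45 ± 0.199), Acss2 (0.60 ± 0.224) and Me1 (0.35 ± 0.179), and 4 were lower in introns, Acly (-0.46 ± 0.200), Acss2 (-0.41 ± 0.206), Me1 (-0.73 ± 0.174) and Mlxipl (-0.83 ± 0.239). Acly, Acss2 and Me1 thus had opposite signs in exons and introns, with none past the adjusted threshold.

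A daily curve was fitted with a 24 h wave over hours since food and another over hours since lights on. Against food time 342 genes, 2.18% of those tested, had a rhythm in exons, and 4 of the 10 were among them: Acly, Acss2, Thrsp and Mlxipl. Against light time 247 genes had one, 1.57%, and none of the 10, with none under DESeq2. At unadjusted p under 0.05 it was 1 of the 10, against 2540 of 15719 genes. The amplitudes (log2, mean to peak) were 0.60 ± 0.122 for Thrsp (adjusted p = 0.00705), 0.47 ± 0.0893 for Acly (adjusted p = 0.00457), 0.39 ± 0.0896 for Acss2 (adjusted p = 0.0141) and 0.33 ± 0.0725 for Mlxipl (adjusted p = 0.024). These correspond to peak over trough folds of 2.31, 1.93, 1.73 and 1.58. Srebf1 (0.19 ± 0.0634, adjusted p = 0.176) and Me1 (0.23 ± 0.0679, adjusted p = 0.0899) were not called. With the adipocyte and sebaceous sums as covariates Mlxipl was not called (amplitude 0.32, adjusted p = 0.0568) and Me1 was (0.30, adjusted p = 0.0281). With code L as a term none of the 10 was called, and the amplitudes were 0.64 for Thrsp, 0.28 for Acly, 0.26 for Mlxipl and 0.18 for Acss2.

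In introns 194 genes, 1.33%, had a rhythm against food time, and 5 of the 10 were among them: Acly (adjusted p = 0.0215), Elovl6 (0.0271), Acaca (0.0347), Thrsp (0.0354) and Acss2 (0.0358), all adjusted p from edgeR. Thrsp was not called without the 2 pools with hair shaft transcripts (amplitude 0.51, adjusted p = 0.069), and Elovl6 was not called with library sizes and factors taken from exon reads (amplitude 0.27, adjusted p = 0.0524). Against light time 320 genes had one, 2.19%, and none of the 10. At unadjusted p under 0.05 it was 1 of the 10, against 2228 of 14611 genes.

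The order of peaks of regulators and enzymes was read from the same curves, as hours since the window opened ± SE. In exons Thrsp peaked at 5.59 ± 0.755 h and Mlxipl at 7.10 ± 0.808 h. Srebf1 peaked at 7.87 ± 1.25 h, with a rhythm that was not called. Acly followed at 9.01 ± 0.697 h, Acss2 at 10.2 ± 0.861 h and Me1, not called, at 10.4 ± 1.13 h. The SE ranges of neighbours in this order overlapped, and the peaks of Acaca, Fasn, Elovl5 and Elovl6 had SEs above 2 h and are not ordered.

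Differences between peaks were computed within the same libraries, with 95% t intervals and no test, over 17 pairs of a gene with Mlxipl or Srebf1 in each kind of read. In exons Acly peaked 1.91 h after Mlxipl (interval 0.397 to 3.42 h), Acss2 3.10 h (0.957 to 5.25 h) and Me1 3.29 h (0.826 to 5.76 h) after it. These intervals lie above 0. Thrsp minus Mlxipl was -1.5 h (-3.12 to 0.113 h) and Srebf1 minus Mlxipl 0.77 h (-1.14 to 2.68 h). Against Srebf1, Acss2 peaked 2.33 h later (0.0452 to 4.62 h), while Acly minus Srebf1 was 1.14 h (-0.753 to 3.03 h) and Thrsp minus Srebf1 -2.27 h (-4.71 to 0.16 h). In exons the enzymes with an ordered peak thus came after Mlxipl, and their order relative to Srebf1 had an interval above 0 for Acss2 and not for Acly or Me1. Leaving out single pools gave Acss2 minus Srebf1 values between 1.94 and 2.75 h, and 16 of these 24 intervals covered 0.

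In introns the order was another. Thrsp peaked at 2.57 ± 0.869 h, Mlxipl (not called) at 3.87 ± 1.71 h, Me1 (not called) at 5.52 ± 1.12 h, Acly at 5.55 ± 0.812 h and Acss2 at 6.17 ± 0.912 h. Fasn (not called) peaked at 6.34 ± 1.17 h, Elovl6 at 7.08 ± 0.791 h, Acaca at 7.10 ± 0.862 h, Srebf1 (not called) at 8.55 ± 1.21 h and Elovl5 (not called) last, at 18.2 ± 1.75 h. Acly minus Srebf1 was -3.00 h with an SE of 1.18 h, and Srebf1 minus Mlxipl was 4.68 h with an SE of 1.94 h. Thrsp minus Srebf1 was -5.98 h (-9.14 to -2.83 h). The fitted intron peak of Srebf1 thus came after those of Acly, Thrsp and Mlxipl, on curves of Srebf1 and Mlxipl that were not called. Acly minus Mlxipl was 1.68 h (-0.908 to 4.28 h), Acss2 2.30 h (-0.892 to 5.49 h) and Me1 1.65 h (-1.05 to 4.34 h). Each of these intervals against Mlxipl covered 0, unlike in exons. Of the other intron pairs only those of Elovl5 had intervals clear of 0.

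Exon peaks came after intron peaks of the same gene by 3.45 h for Acly (1.64 to 5.26 h), 4.03 h for Acss2 (1.72 to 6.34 h), 4.87 h for Me1 (1.59 to 8.15 h), 3.02 h for Thrsp (1.15 to 4.90 h) and 3.23 h for Mlxipl (0.119 to 6.33 h). Each of these intervals lies above 0. The intervals of the other 5 genes covered 0: Srebf1 had -0.68 h (-2.05 to 0.683 h), Fasn 0.80 h (-1.71 to 3.30 h) and Acaca 1.85 h (-3.90 to 7.60 h), and those of Elovl5 and Elovl6 were wider still. Without 1 pool at a time the Mlxipl value lay between 2.77 and 4.08 h, and 15 of the 24 intervals then covered 0.

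Each feeding group was also fitted by itself. In ED skin 113 genes, 0.719%, had a daily rhythm and 4 of the 10 were among them: Acss2 (amplitude 0.73 ± 0.135, adjusted p = 0.00735), Acly (0.74 ± 0.151, adjusted p = 0.0194), Thrsp (0.90 ± 0.199, adjusted p = 0.0301) and Me1 (0.50 ± 0.112, adjusted p = 0.0424). When both pools with hair shaft transcripts were left out, Acss2 alone was called. In MD skin 148 genes, 0.942%, had a rhythm and none of the 10, with 1, Mlxipl, under DESeq2. At unadjusted p under 0.05 it was 3 of the 10, against 2463 of 15719 genes. In EN skin 166 genes, 1.06%, had one and none of the 10, with 1, Thrsp, under DESeq2. At unadjusted p under 0.05 it was 1 of the 10, near the share of all genes, 1704 of 15719.

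In introns the ED fit called 66 genes, 0.452%, among them 1 of the 10, Elovl6 (amplitude 0.56 ± 0.0979, adjusted p = 0.00726). The MD fit called 123, 0.842%, and the EN fit 130, 0.89%, with none of the 10 in either. At unadjusted p under 0.05 they gave 6 and 1 of the 10, against 2030 and 1834 of 14611 genes.

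The fitted peaks moved with the window. Acly peaked at ZT20.6 ± 1.65 h in EN, ZT13.0 ± 1.47 h in MD and ZT8.86 ± 0.723 h in ED skin, which are 8.60, 8.04 and 8.86 h since food. Acss2 peaked at ZT21.3 ± 1.80 h in EN, ZT14.5 ± 2.61 h in MD and ZT9.83 ± 0.674 h in ED skin, which are 9.26, 9.55 and 9.83 h since food. Mlxipl peaked 5.35, 6.81 and 7.17 h since food, and Thrsp 4.10, 4.69 and 7.21 h, in EN, MD and ED skin. Only the ED values of Acly, Acss2 and Thrsp come from called rhythms.

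A test of the difference itself asked whether the daily curve over light time was another in EN than in ED skin. It was called for 63 genes, 0.401%, among them 3 of the 10: Thrsp (adjusted p = 0.0123), Acss2 (adjusted p = 0.0124) and Acly (adjusted p = 0.0223). The difference curves had log2 amplitudes of 1.44, 1.00 and 1.07. In introns 23 genes, 0.157%, were called, among them Elovl6 (adjusted p = 0.0183, amplitude 0.75). MD against ED gave 55 genes, 0.35%, and EN against MD 55 genes, 0.35%, with none of the 10 in either. At unadjusted p under 0.05 those comparisons gave 5 and 3 of the 10, against 1841 and 2000 of 15719 genes. DESeq2 called 2 of the 10 (Acly and Acss2) in the first and none in the second. In introns the same comparisons gave 65 genes, 0.445%, and 39 genes, 0.267%, with none of the 10. At unadjusted p under 0.05 they gave 7 and 3 of the 10, against 1696 and 1785 of 14611 genes.

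Mean levels over the day were compared last. They were lower in MD than in ED skin for 4 of the 10 genes, Acss2, Acaca, Me1 and Thrsp, and higher for none, against 11.8% of all genes lower and 11.2% higher. Thrsp had between 49.2 and 167 CPM (median 86.9) in MD skin, against between 91.6 and 271 CPM (median 183) in ED skin. Those ranges overlap, and the change was -0.91 ± 0.195 (adjusted p = 0.00121). Acss2 had between 67.4 and 145 CPM (median 84.4) in MD skin, against between 89.9 and 219 CPM (median 131) in ED skin, a change of -0.55 ± 0.135 (adjusted p = 0.00413). Me1 changed by -0.40 ± 0.110 (adjusted p = 0.00858) and Acaca by -0.44 ± 0.149 (adjusted p = 0.0324). Without the ED ZT24 and EN ZT0 libraries Acaca was not called (-0.41 ± 0.156, adjusted p = 0.0584). The adipocyte marker sum was lower in MD too, at the values given above, and its part in these differences was not tested.

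EN against MD skin gave the mirror image for 3 genes: Thrsp (0.67 ± 0.195, adjusted p = 0.00737), Me1 (0.30 ± 0.110, adjusted p = 0.0353) and Acss2 (0.35 ± 0.135, adjusted p = 0.0472) were higher in EN skin, against 15.9% of all genes higher and 14.4% lower. This comparison shares the MD pools with the one before it. None of the 10 was lower, while DESeq2 called 1, Elovl5. EN against ED skin gave 0 called genes of 15719 (0% in each direction) by edgeR and 6 by DESeq2, none of the 10, with 614 higher and 347 lower at unadjusted p under 0.05, of which 1 of the 10, Elovl6, was lower.

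**Figure D4:**
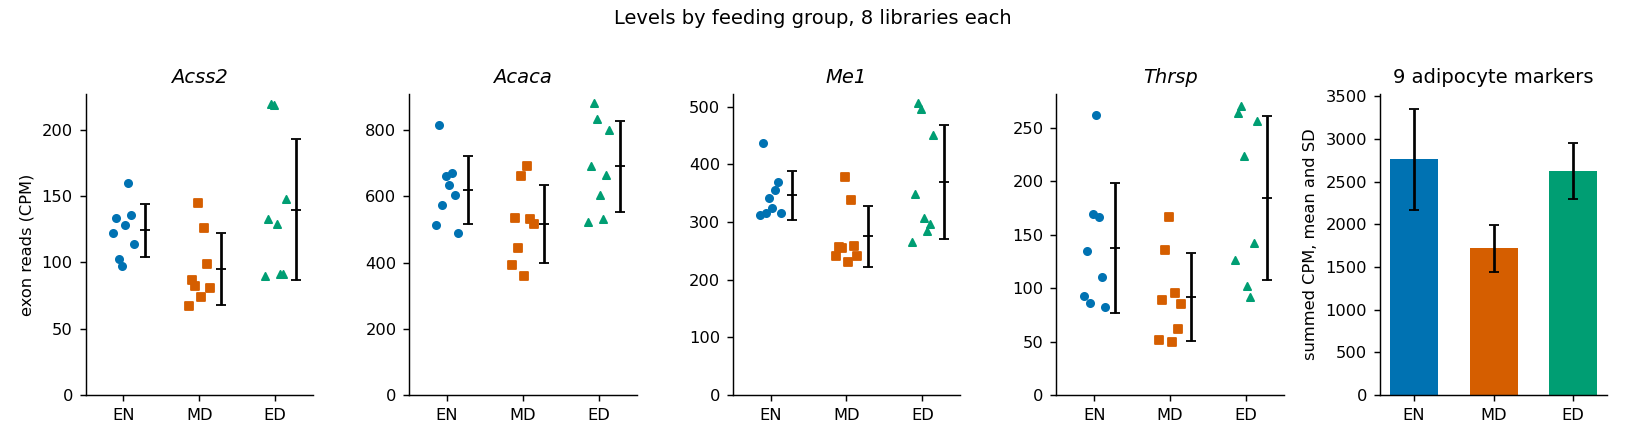
Exon level in CPM (y axes) of Acss2, Acaca, Me1 and Thrsp in EN, MD and ED skin (x axes), with the summed level of 9 adipocyte markers. Points are the 8 pools of a group and bars show the mean with 1 SD. Thrsp averages 138 CPM in EN, 91.7 CPM in MD and 185 CPM in ED skin.

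Elovl5 went the other way between groups in introns. Its exon differences had the same signs and were not called by edgeR. They were 0.14 ± 0.0658 for MD against ED (adjusted p = 0.173) and -0.17 ± 0.0658 for EN against MD (adjusted p = 0.0679). Its introns had between 233 and 298 CPM (median 269) in MD skin, against between 182 and 229 CPM (median 206) in ED skin and between 171 and 227 CPM (median 193) in EN skin. The MD range lies above both others. The change was 0.35 ± 0.0673 for MD against ED (adjusted p = 0.0011) and -0.44 ± 0.0673 for EN against MD (adjusted p = 0.000152). In introns 8.53% of genes were higher in MD than ED and 8.16% lower in EN than MD. Elovl6 introns (-0.32 ± 0.0959, adjusted p = 0.0151) and Thrsp introns (-0.81 ± 0.213, adjusted p = 0.00761) were lower in MD than in ED skin, where 7.02% of genes were. In introns none of the 10 was higher in EN than in MD skin, where 6.65% of genes were. At unadjusted p under 0.05 it was 1 of the 10, against 2015 of 14611 genes.

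Across the 24 libraries the exon level of Elovl5 followed the summed sebaceous gland markers (Pearson's r = 0.78, permutation p = 2e-05; Spearman's rho = 0.83, permutation p = 1e-05, the smallest that 100000 resamples can give). Over the 20 relations computed the Benjamini-Hochberg adjusted permutation values were 4e-04 and 2e-04, and r was 0.78 without the 2 libraries farthest from the median of that sum. Within groups r was 0.77 in EN, 0.51 in MD and 0.59 in ED skin. Acaca and the adipocyte sum had r = 0.60 and rho = 0.53 (adjusted permutation p = 0.0127 and 0.0384), r = 0.55 without the 2 farthest libraries, and r = 0.24, 0.57 and 0.38 within EN, MD and ED skin, so this relation is weaker inside the EN and ED groups. 3 other genes passed on both measures with the adipocyte sum. Elovl5 was inverse to it (r = -0.62, rho = -0.56, adjusted permutation p = 0.0126 and 0.0349), with r = -0.47 without the 2 farthest libraries and -0.12, -0.37 and -0.31 within EN, MD and ED skin. Thrsp had r = 0.56 and rho = 0.56 (adjusted permutation p = 0.0213 and 0.0349), with r = 0.48 without the 2 farthest and 0.34, 0.22 and 0.39 within groups. Me1 had r = 0.50 and rho = 0.53 (adjusted permutation p = 0.0383 and 0.0384), with r = 0.49 without the 2 farthest and -0.091, 0.19 and 0.23 within groups. These relations are partly between groups, whose marker sums differ. The sebaceous sum in these relations left out Elovl3 and Scd3. The sum of all 9 sebaceous markers averaged 1346 ± 60.0 CPM in EN, 1601 ± 112 CPM in MD and 1385 ± 117 CPM in ED skin.

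Among themselves, the 10 genes fell into a few patterns over the 24 libraries, as Pearson correlations of log2 CPM. Acss2 and Me1 (0.92), Acaca and Fasn (0.91), Acaca and Me1 (0.90) and Acly and Acss2 (0.90) were most alike, while Elovl5 was negatively correlated with 8 of the other 9, all but Elovl6 (0.24). Among all genes tested, those most like Fasn were Slc25a10 (0.92), Acaca (0.91), Tkt (0.91), Pcx (0.90) and Gpd1 (0.89). Among those most like Srebf1 were Tomm40 (0.90), Yars (0.89), Bop1 (0.88) and Ehd1 (0.87). Among those most like Mlxipl were 1300001I01Rik (0.83), Ywhag (0.83), Eif3b (0.82) and Stip1 (0.81).

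6 pairs of pools shared a feeding group and an hour on consecutive days and show how far repeat pools differ. The median absolute log2 difference between exon levels of such a pair was 0.34 for Acly, 0.15 for Acss2, 0.29 for Acaca, 0.37 for Fasn, 0.20 for Me1, 0.22 for Thrsp, 0.21 for Srebf1 and 0.28 for Mlxipl. For Acly, Acss2, Me1, Thrsp, Srebf1 and Mlxipl the change with food was larger than this median, while for Fasn (0.35) and Acaca (0.24) it was not. The largest pair differences were 0.86 for Fasn, 0.74 for Acaca and 0.71 for Thrsp. For Srebf1 (0.67) and Me1 (0.47) the largest pair difference was above the change with food, 0.40 and 0.35. For Acly (0.46), Acss2 (0.55), Mlxipl (0.56) and Thrsp it was below that change. The change is between means of several pools and a pair is of single pools, so they are not on the same footing.

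The sample descriptions carry a code from L1 to L8, shared by 3 libraries each, whose meaning they do not give. Libraries of 1 code are nearly all of 1 feeding group and neighbouring hours, so code and hour are partly confounded. Codes L1 (MD) and L7 (EN) each held 1 pool after food and 2 before food. Within L1 exon levels were higher after food for 8 of 10 genes (median log2 difference 0.23) and intron levels for 10 of 10 (median 1.03). Within L7 they were higher for 9 of 10 genes (median 0.23) in exons and for 8 of 10 (median 0.66) in introns. The other 6 codes lack 1 of the 2 classes. With the code as a term in the fit across all genes, 1 of the 10 was called higher after food in exons, Thrsp (1.57 ± 0.425, adjusted p = 0.0376). Mlxipl then differed by 0.79 ± 0.208 (adjusted p = 0.0615), Srebf1 by 0.56 ± 0.173 (adjusted p = 0.118) and Acly by 0.77 ± 0.321 (adjusted p = 0.195). Acss2 differed by 0.45 ± 0.373 (adjusted p = 0.501) and Me1 by 0.20 ± 0.258 (adjusted p = 0.702).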

How the data were processed

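Whole back skin RNA was sequenced in 24 libraries with a stranded total RNA kit, per the labels' protocols. The submitters' processing notes name TopHat2, SAMtools, HOMER and the build mm10, without roles or versions. No source used here says how multi-mapping reads were treated. The authors deposited raw read counts per gene model for exons, introns and antisense reads, and RPKM values with cqn in the name of that table. Reads of close paralogs such as the Scd genes may therefore be shared.

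The genes and lists were chosen with earlier results of these data known. Counts were scaled by TMM, filtered (filterByExpr, minimum count 10, minimum total 15) and tested with edgeR 4.0.16 (quasi-likelihood F test) in R 4.3.3, with Benjamini-Hochberg adjustment over all genes and a threshold of 0.05. The design had feeding group, hour of the day and food class (14 residual degrees of freedom), or feeding group with waves of 24 h over light and food time (17), or a wave per group (15). The test of 7 to 8 h against 3 to 4 h had 14. Log2 differences, SEs and peak times are least squares values on log2 CPM with a prior count of 2. Ratios of intron to exon reads were tested with limma 3.58.1. The statistical fits were tested on simulated data. The alternatives were DESeq2 1.42.0, other filters and covariates, exon library sizes and factors for introns, limma on log2(RPKM + 0.1) and leaving out pools. Named genes are the 10 members, up to 3 genes of each other list with the smallest adjusted p-values, and the 5 genes most like each of Fasn, Srebf1 and Mlxipl, of which 1 each for Srebf1 and Mlxipl is not reported here. Numbers 1 to 8 of the pools stand for sampling times and do not pair animals.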

Additional observations from a re-analysis of the deposited data

Results flagged for a closer look

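Single pools lay far from the other 7 of their feeding group in 9 of 60 groups of 8 looked at. The rule flags about 1 in 20 groups of like pools, while these pools are of different hours. The count is thus a description and cannot be set against that share. EN ZT16 and MD ZT8 were the only pools of their groups at 3 to 4 h. The gap to the nearest pool is given as a share of the group's range on the log2 scale. In exons Elovl6 was low in ED ZT0 (0.536 of the range, 358 CPM) and in MD ZT16 (0.533, 335 CPM). In introns the EN ZT16 pool, 4 h after opening, was high for Acly (0.605, 365 CPM with the next pool at 230 CPM), Acss2 (0.548, 130 CPM with the next at 65.5 CPM), Acaca (0.54, 811 CPM with the next at 542 CPM) and Me1 (0.628, 567 CPM with the next at 328 CPM). The MD ZT8 pool, 3 h after opening, was high for introns of Me1 (0.605, 537 CPM with the next at 306 CPM) and Elovl6 (0.596, 473 CPM with the next at 359 CPM). Srebf1 introns were low in ED ZT20 (0.617, 63.3 CPM with the next at 78.9 CPM).

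The daily curve over light time differed between EN and ED skin in exons for Acly (adjusted p = 0.0223, difference amplitude 1.07), Acss2 (adjusted p = 0.0124, 1.00) and Thrsp (adjusted p = 0.0123, 1.44), and in introns for Elovl6 (adjusted p = 0.0183, 0.75), all by edgeR.

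Antisense reads, which no comparison used, were above the limit of 3 counts for every gene when summed over 24 libraries. There were 141 for Acly, 98 for Acss2, 302 for Acaca, 330 for Fasn, 292 for Me1, 105 for Elovl5, 626 for Elovl6, 336 for Thrsp, 1881 for Srebf1 and 129 for Mlxipl. For Srebf1 they came to 2.93% and for Mlxipl to 1.21% of the exon reads.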

How the results depend on the processing

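The count of 6 genes higher after food in exons fell to 1 (Thrsp) with code L as a term and lay between 3 and 6 without single pools. It was 3 without MD ZT12, ED ZT20, EN ZT8, EN ZT12 or EN ZT20, in each of which Acss2, Me1 and Srebf1 were lost. Me1 was lost in 17 and Srebf1 in 7 of the 24 fits without single pools. With sampling time as a replicate block the count was 6. Over all genes the count was 762, 1012 with the block, 1139 with DESeq2, 99 with code L and 373 without the second day. The 24 h food rhythm, 4 genes, was called for 1 (Acly) without the second day, 0 with code L and 2 to 5 without single pools. The ED rhythm was called for 1 (Acss2) instead of 4 without ED ZT24 and EN ZT0, and the intron ratio for 1 (Acaca) instead of 2, where the setting for the ratio was chosen after seeing the data. DESeq2 called 1 gene in MD (Mlxipl) and 1 in EN (Thrsp) for the daily rhythm, 2 for MD against ED rhythm (Acly, Acss2) and 1 lower in EN than MD (Elovl5), where edgeR called 0. Elovl5 after food changed sign to 0.0033 without the time-of-day term and 0.0238 with limma on RPKM, and ranged from -0.0731 to 0.0167 without single pools. Thrsp minus Mlxipl peak time was -1.55 h under log2(RPKM + 0.1), with an interval below 0, and -1.98 to -1.02 h without single pools, Acss2 minus Srebf1 1.94 to 2.75 h and Mlxipl exon minus intron 2.77 to 4.08 h. For 7 to 8 h against 3 to 4 h the sign turned without single pools for Elovl5 (-0.0771 to 0.0777), Elovl6 (-0.0893 to 0.13), Mlxipl (-0.23 to 0.0057) and Thrsp (-0.23 to 0.0658). The intron count after food was 5 to 7 without single pools, also chosen after seeing the data, with Fasn and Srebf1 each lost in 9 of the 24 fits. The cause of these changes was not tested. The sampling numbers do not pair animals, and the block changed no count of members. Mlxipl exons (288 to 683 reads) and Thrsp introns (60 to 371 reads) set the limits of depth.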
